A study of Mus musculus with 6 samples.

Results

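The DNA replication genes described here are 39 genes whose proteins load, fire and run the replication machinery or supply it with deoxynucleotides. They were taken by name, without reference to their measured levels, and older symbols on the array, such as Cdc45l for Cdc45, counted as matches for 8 of them. All 39 were measured among 15032 genes tested, and all 39 were well above background on all 6 arrays. Each gene was read through its probe with the highest mean signal.

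RNA of whole mouse embryos, taken at embryonic day (E) 8.5, was hybridised to Agilent arrays of 1 colour, each sample to an array of its own. The 3 Brg1d/d samples are conditional knockouts of Brg1. The 3 Brg1fl/fl samples carry the floxed gene and are labelled wild type; they are called controls below. Per the labels, the dams of both groups received tamoxifen by intraperitoneal injection, so the controls share that exposure. Brg1, encoded by Smarca4, is an ATPase subunit of SWI/SNF chromatin remodelling complexes. The sources used here do not give the Cre line, the deleted exons, the strain, or the number of embryos behind a sample.

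DNA replication starts at origins, which the origin recognition complex (ORC) marks in G1 phase. Cdc6 and Cdt1 then load the ring-shaped MCM helicase, and in S phase the kinase Cdc7, with Cdc45, Mcm10 and other factors, sets the helicase moving. Primase and DNA polymerase alpha lay down primers, polymerases delta and epsilon extend them on the Pcna clamp, and Fen1 and DNA ligase I finish the lagging strand. Many of these genes are transcribed in late G1 and S phase under E2F transcription factors, and the early postimplantation mouse embryo is among the fastest dividing of mammalian tissues.

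The targeted gene was lower on every Brg1d/d array. Smarca4 had levels of 1.49, 2.65 and 2.0 in Brg1d/d 1, 2 and 3 against 5.28, 4.45 and 4.50 in controls 1, 2 and 3, where a level is the signal of the probe on the log2 scale relative to the 75th percentile of its array. The groups did not overlap, and the difference was -2.69 ± 0.36 on the log2 scale (SE, n = 3 per genotype, limma adjusted p = 0.0114), which is 6.47-fold lower. Without Brg1d/d 3 the adjusted p was 0.0540, at a difference of -2.67, and the same-day value (defined below) was -2.09. The sources used here do not say whether this probe lies in the deleted part of the gene. Scanning took place on 3 days, 1 for Brg1d/d 2 together with the 3 controls, 1 for Brg1d/d 1 and 1 for Brg1d/d 3. The brightest spike-in signal also set Brg1d/d 1 and Brg1d/d 3 apart, at 12934 and 6905 units, from the other 4 arrays, at 208550 to 241121 units. The 3 controls lay on 1 slide and each Brg1d/d array on another, so slide and genotype cannot be told apart. The difference between Brg1d/d 2 and the mean of the controls, called the same-day value below, is free of scan day and spike-in split but not of slide, and rests on 1 Brg1d/d array. Control 1 stood apart from controls 2 and 3 in tissue markers: its summed linear level (relative to the array's 75th percentile) was 69.5 for 7 primitive red cell genes, against 249.2 and 275.1. For 8 visceral endoderm genes it was 88.96, against 383.8 and 400.0.

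Of the 39 replication genes, Rrm2 fell in Brg1d/d embryos and none rose at a limma adjusted p under 0.05. Over all genes tested, 10.6% passed that threshold, 5.31% lower and 5.25% higher. The replication genes were mostly close to their control levels, although 28 of 39 (71.8%) had a difference below 0, against 45.0% of all genes. The median difference was -0.09 on the log2 scale, against 0.07 for all genes. Without control 1 the median was -0.05 and 23 of the 39 were below 0, and with arrays scaled on their medians it was -0.19, against -0.03 for all genes, with 30 below 0. In absolute size, the median difference of the 39 genes was 0.15, and that of all genes was 0.38. The same-day median was -0.09 for the replication genes and 0.0039 for all genes. RNA of whole embryos was measured. Where a level was lower, fewer cells in cycle, less RNA per cell and another mix of cell types cannot be told apart. Slide and genotype cannot be told apart either, as stated above.

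The 95% intervals show what sizes of difference between the groups the spread of the replicates leaves possible for each gene. They make no allowance for slide, scan day or spike-in split, so they do not bound the effect of genotype alone. For 35 of the 39 genes (89.7%) the whole interval lay within 1 log2 unit of 0, that is, within a 2-fold change, against 54.2% of all genes. For 26 of the 39 it lay within a 1.5-fold change. Only Prim2 had a difference of at least 1 log2 unit, which is 2.56% of the replication genes, against 14.5% of all genes. The replicates of the 39 genes lay closer together at the median: the SD was 0.13 in Brg1d/d and 0.12 in controls, against 0.20 and 0.23 over all genes. Of all genes, 14211 had a probe well above background on all 6 arrays, as the 39 did. The comparisons of this paragraph were not matched for signal level, so they do not set replication genes apart from other bright genes. The Brg1d/d and control values did not overlap for 15 of the 39 genes (38.5%), against 41.9% of all genes. In 12 of these (30.8% of the 39) the Brg1d/d values were the lower ones, against 19.1% of all genes, and in 3 (7.69%) the higher ones, against 22.8%.

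**Figure D1:**
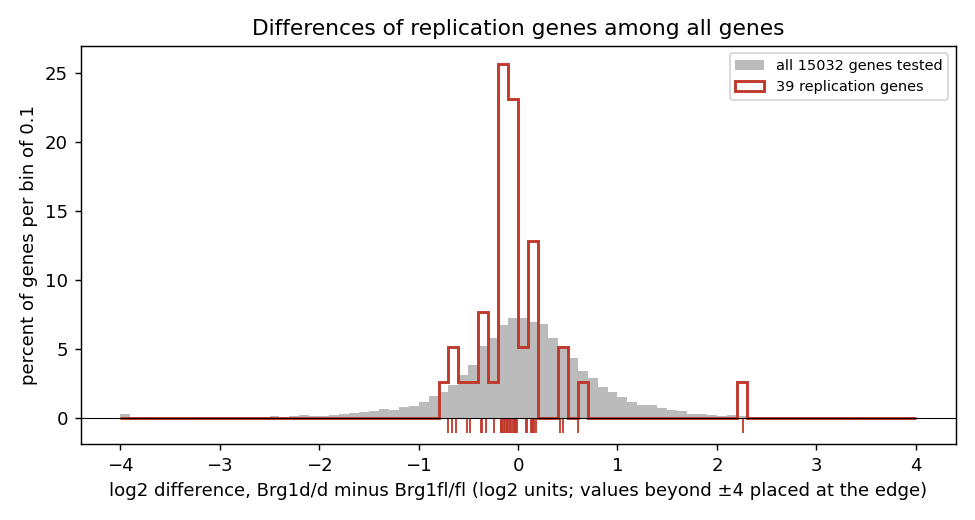
Percent of genes in each bin of 0.1 of the log2 difference between Brg1d/d and Brg1fl/fl, in grey for all 15032 genes tested and in red for the 39 replication genes, whose single values are the ticks under the axis. Most of the replication genes lie near 0, between the lowest at -0.70 (Cdc7) and the highest at 2.26 (Prim2).

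The 3 deoxynucleotide supply genes had the lowest median difference of the 9 role groups, -0.63, which is the value of Tyms. The 14 other nucleotide supply genes, described further on, did not share it, with a median of 0.11 and 6 below 0. Rrm2, the small, cell-cycle-regulated subunit of ribonucleotide reductase, had levels of 3.01, 3.02 and 3.04 in Brg1d/d 1, 2 and 3. In controls 1, 2 and 3 it had 3.75, 3.76 and 3.56. The 3 Brg1d/d arrays lay close together, with an SD of 0.01, and all were lower than every control. The difference was -0.66 ± 0.14 (SE, n = 3 per genotype), with a 95% interval of -1.0 to -0.32, or 1.58-fold lower (limma adjusted p = 0.0391). The same-day value was -0.66, with the adjusted p at 0.424 with scan day as a block and 0.254 with the spike-in split as a block. The call did not hold without Brg1d/d 1 (adjusted p = 0.125), Brg1d/d 3 (0.144), control 2 (0.163) or control 3 (0.0732), while the difference stayed between -0.72 and -0.63 in these fits.

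Tyms, thymidylate synthase, which makes the thymidine nucleotide used only in DNA, had levels of 4.20, 4.43 and 4.21 in Brg1d/d 1, 2 and 3, against 4.86, 4.84 and 5.01 in controls 1, 2 and 3. All Brg1d/d values were below all control values, but the difference of -0.63 ± 0.15 narrowly missed the threshold (limma adjusted p = 0.0520). Its same-day value was -0.48, and without Brg1d/d 2 the difference was -0.70 (adjusted p = 0.0389). Rrm1, the large catalytic subunit that pairs with Rrm2, differed by -0.11 ± 0.14, with overlapping groups. Ribonucleotide reductase needs both subunits, and the interval of Rrm1, -0.46 to 0.23, overlapped that of Rrm2. Whether the subunits differ from each other was not tested.

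The probes behind Rrm2 and Tyms, and that of Prim2 discussed further on, are shown because the account turns on these genes: Rrm2 passed, Tyms came nearest to passing and Prim2 had the highest difference. Positions are those of the array's annotation, mouse build mm7, and no gene models of that build were used here, so exon or UTR is not stated. The Rrm2 probe lies at chr12:22550253-22550307 on the plus strand, that of Tyms at chr5:29093977-29094036 on the minus strand and that of Prim2 at chr1:33676948-33677007 on the minus strand.
Rrm2: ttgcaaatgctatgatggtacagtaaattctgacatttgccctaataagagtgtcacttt
Tyms: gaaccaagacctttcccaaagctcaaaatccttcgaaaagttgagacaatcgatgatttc
Prim2: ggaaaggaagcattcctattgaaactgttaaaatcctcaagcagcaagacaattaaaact

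**Figure D2:**
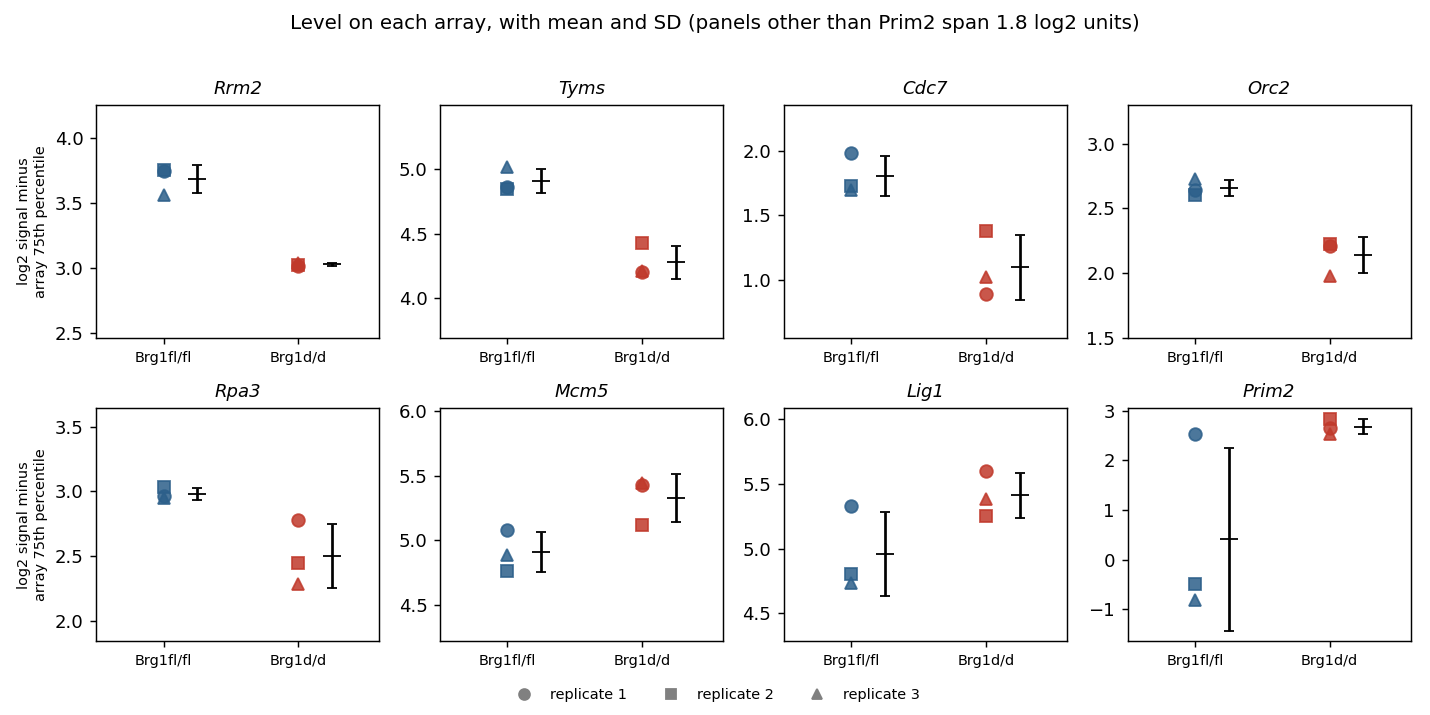
Level of 8 replication genes on each array (log2 units relative to the 75th percentile of that array), controls in blue and Brg1d/d in red, with the mean and SD of each genotype in black (n = 3). The 3 Brg1d/d values of Rrm2 lie between 3.01 and 3.04, and the Prim2 level of control 1, 2.53, lies with the Brg1d/d arrays and not with controls 2 and 3.

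The 6 origin recognition genes encode the subunits of ORC, and 5 of the 6 had a difference below 0, with none past the threshold. Orc2 had the largest: 2.21, 2.23 and 1.98 in Brg1d/d 1, 2 and 3, against 2.64, 2.60 and 2.73 in controls 1, 2 and 3. Its groups did not overlap, and the difference was -0.52 ± 0.15 (limma adjusted p = 0.0788, same-day value -0.43). Orc4 also had no overlap, at -0.36 ± 0.17, as did Orc6 at -0.24 ± 0.15. Orc1, the subunit that comes and goes with the cell cycle in mammals, differed by -0.01 ± 0.14, Orc5 by -0.08 ± 0.20 and Orc3 by 0.08 ± 0.18, all with overlapping groups.

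Among the licensing genes, Gmnn, whose protein geminin binds Cdt1 and blocks a second round of loading, had levels of 5.87, 5.83 and 5.78 in Brg1d/d 1, 2 and 3. In controls 1, 2 and 3 it had 5.93, 5.97 and 5.99. The groups did not overlap, yet the gap was small beside its error, -0.14 ± 0.14 (limma adjusted p = 0.498). Cdc6 and Cdt1, the loading factors themselves, each differed by -0.04 ± 0.15, with overlapping groups.

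The MCM genes, which encode the 6 subunits of the replicative helicase, did not share a direction. Mcm5 had the largest difference, with 5.43, 5.11 and 5.44 in Brg1d/d 1, 2 and 3, against 5.08, 4.77 and 4.89 in controls 1, 2 and 3. Its lowest Brg1d/d value lay just above its highest control, and the difference was 0.42 ± 0.17 (limma adjusted p = 0.155, same-day value 0.20). On their brightest probes, the other 5 subunits overlapped between genotypes. Mcm6 differed by 0.09, Mcm7 by -0.03, Mcm2 and Mcm4 by -0.11 each, and Mcm3 by -0.17, each with an SE between 0.15 and 0.18. The subunits act in equal numbers in the helicase ring, but these are RNA levels of 1 probe each. Another kept probe of Mcm3 had the opposite sign, at 0.25 ± 0.15 (limma adjusted p = 0.292). All its Brg1d/d values lay above all its control values.

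Of the origin firing genes, Cdc7, the kinase that phosphorylates the MCM ring, had the lowest difference of all 39 genes. Its levels were 0.89, 1.38 and 1.03 in Brg1d/d 1, 2 and 3, against 1.98, 1.73 and 1.70 in controls 1, 2 and 3. The groups did not overlap, and Brg1d/d 2, the array scanned with the controls, was the nearest to them. The difference of -0.70 ± 0.19 did not pass (limma adjusted p = 0.0665), and the same-day value was -0.42. Without Brg1d/d 2 the difference was -0.85 (adjusted p = 0.0337). Cdc45, a part of the active helicase, differed by 0.13 ± 0.15, and Mcm10, which helps to start it, by -0.02 ± 0.18.

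The primase and polymerase genes held the widest spread. Prim2, the large primase subunit, had levels of 2.66, 2.83 and 2.54 in Brg1d/d 1, 2 and 3. Its control levels were 2.53 in control 1, -0.49 in control 2 and -0.81 in control 3. Control 1 lay within 0.30 of the Brg1d/d arrays and 3.18 log2 units (9.06-fold) above the mean of the other 2 controls. The difference over all arrays was 2.26 ± 0.85 (limma adjusted p = 0.130). Without control 1 it was 3.32 (adjusted p = 0.00171), so that control 1 decides the call in this fit, and it is the control whose red cell and visceral endoderm marker sums stood apart. The red cell sums of Brg1d/d, 59.9 to 73.7, lay near that of control 1. The visceral endoderm sums of Brg1d/d, 300.0 to 352.6, lay nearer those of controls 2 and 3, unlike Prim2. The part of those tissues in the Prim2 values was not tested.

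Prim1, the catalytic primase subunit, differed by -0.16 ± 0.15. Pola1, the catalytic subunit of polymerase alpha, had no overlap between genotypes, at -0.37 ± 0.17 (limma adjusted p = 0.177), and Pola2, its second subunit, differed by -0.13 ± 0.15. Pold1, the catalytic subunit of polymerase delta, differed by 0.61 ± 0.24 (limma adjusted p = 0.147, same-day value 0.41). Its Brg1d/d levels were 4.97, 4.56 and 4.73, and control 1, at 4.61, lay among them and above controls 2 and 3, at 3.90 and 3.94. Without control 1 the difference was 0.84 (adjusted p = 0.0381). Pole and Pole2, subunits of polymerase epsilon, differed by -0.11 ± 0.20 and -0.17 ± 0.15.

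The clamp Pcna, the ring that tethers polymerases to DNA, had no overlap between genotypes, but the difference was -0.18 ± 0.14 (limma adjusted p = 0.415). Among the subunits of the clamp loader, Rfc1 had the largest difference. Its levels were 3.40, 3.73 and 3.53 in Brg1d/d 1, 2 and 3, against 3.98, 3.76 and 3.88 in controls 1, 2 and 3. The groups nearly touched, at Brg1d/d 2 and control 2, and the difference was -0.32 ± 0.16 (limma adjusted p = 0.215). Rfc2 differed by 0.16, Rfc3 by -0.07, Rfc4 by -0.05 and Rfc5 by -0.09, all with overlapping groups on their brightest probes. The other kept probe of Rfc2 differed by 0.44 ± 0.18, without overlap (limma adjusted p = 0.153).

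Replication protein A, the trimer that coats single-stranded DNA at the fork, had its lowest difference in the smallest subunit. Rpa3 had levels of 2.78, 2.44 and 2.29 in Brg1d/d 1, 2 and 3, against 2.96, 3.03 and 2.95 in controls 1, 2 and 3, without overlap. The difference was -0.48 ± 0.18 (limma adjusted p = 0.125), and the same-day value was -0.54. Rpa1 differed by 0.18 ± 0.16 and counts as without overlap, but its groups touched. Its lowest Brg1d/d value and its highest control were both 3.81. Rpa2 differed by 0.14 ± 0.17 on its brightest probe and by -0.21 ± 0.16 on its other kept probe. The difference between subunits was not tested.

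Both genes of Okazaki fragment joining had differences above 0. Lig1, DNA ligase I, had levels of 5.60, 5.26 and 5.39 in Brg1d/d 1, 2 and 3, against 5.33, 4.80 and 4.74 in controls 1, 2 and 3. Control 1 lay between the Brg1d/d values and above the other controls, as it did for Pold1. The difference was 0.46 ± 0.21 (limma adjusted p = 0.193). Fen1, the flap endonuclease that trims the fragments, differed by 0.15 ± 0.16.

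**Figure D3:**
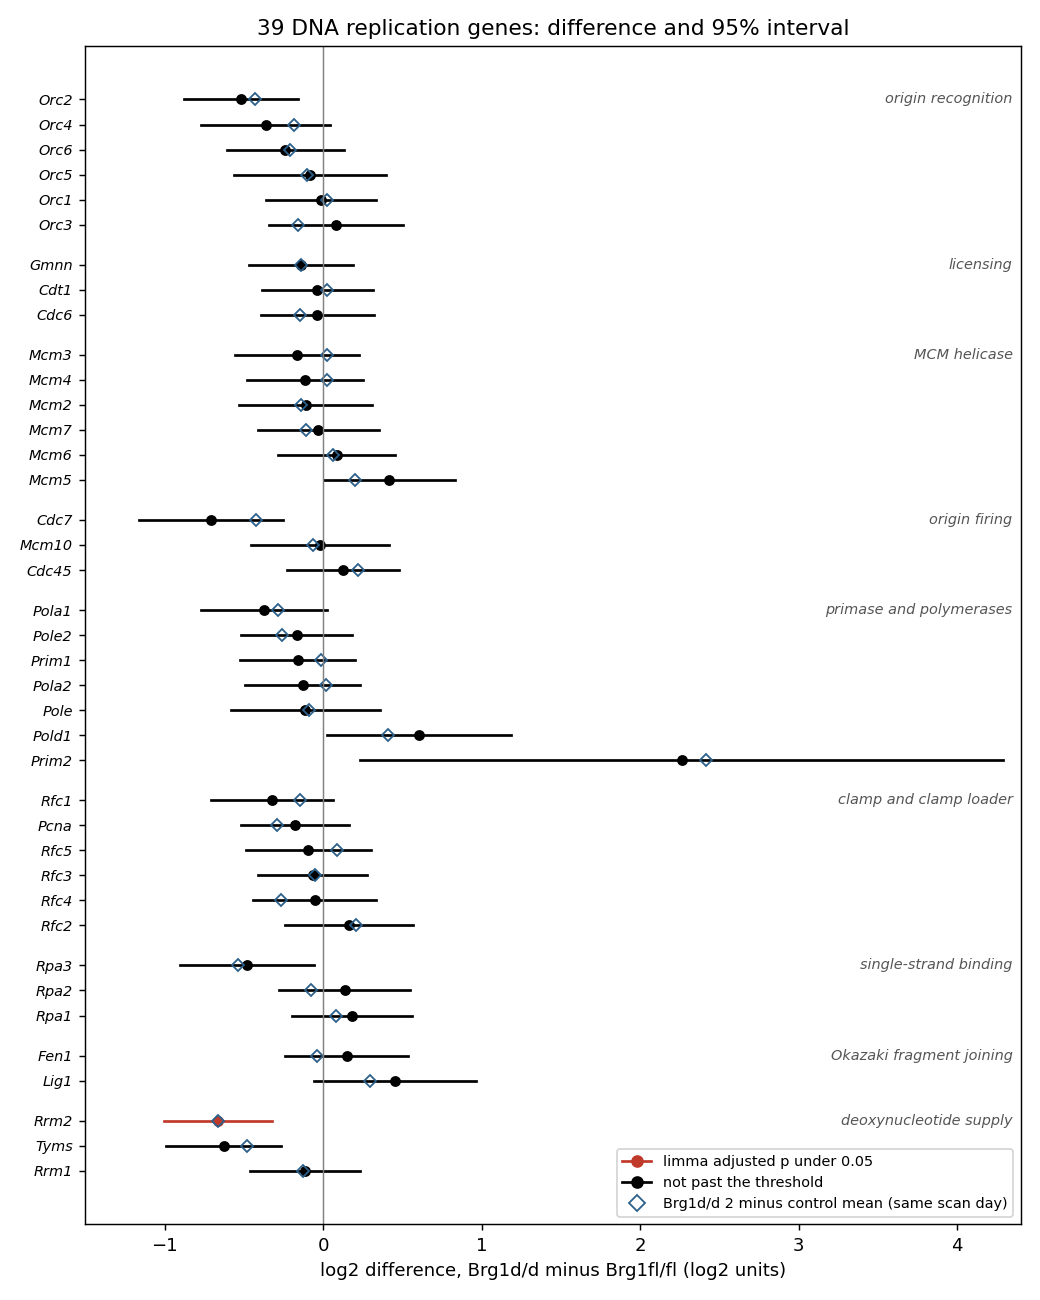
Log2 difference (Brg1d/d minus Brg1fl/fl) of the 39 replication genes by role, with the 95% interval as a line and the same-day value as an open blue diamond. Rrm2, in red, is the gene past the threshold, and 35 of the 39 intervals lie within 1 log2 unit of 0.

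Control 1 lay above the mean of controls 2 and 3 in 27 of the 39 genes, by a median of 0.12 over the 39, against 0.07 over all genes. Relative to the mean of all controls, the median of the 39 genes was 0.08 on control 1, -0.06 on control 2 and -0.02 on control 3. On Brg1d/d 1, 2 and 3 it was -0.06, -0.09 and -0.16. The medians of Brg1d/d 1 and of control 2 were therefore alike in themselves, and those of Brg1d/d 2 and Brg1d/d 3 were below every control. Beside the medians of all genes, Brg1d/d 1 and control 2 were not alike. Over all genes the median was 0.13, 0.0039 and 0.07 on Brg1d/d 1, 2 and 3. On controls 1, 2 and 3 it was 0.05, -0.03 and 0.0031.

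Several genes had more than 1 probe, which lets the same RNA be read again. The array held 62 probes for the 39 genes, of which 56 were kept, and 10 genes had more than 1 kept probe. No probe other than that of Rrm2 passed the threshold, and in 6 of the 10 genes the probes differed in sign. The brightest probe of Tyms is repeated by another at -0.51 ± 0.15 (limma adjusted p = 0.0836), which overlaps it on the genome, while a dim probe gave 0.26 ± 0.42. The levels of that dim probe were -5.56, -6.07 and -4.47 in Brg1d/d and -5.33, -5.59 and -5.97 in controls, with overlap. The 3 probes of Cdc7 gave -0.70, -0.17 and -0.39, and the pair for Pold1 gave 0.61 and 0.59.

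Orc4 had 4 kept probes, at -0.36, -0.52, -0.17 and 0.57. The brightest had levels of 2.02, 2.19 and 1.82 in Brg1d/d 1, 2 and 3, against 2.33, 2.52 and 2.26 in controls 1, 2 and 3. The probe of opposite sign was dim, with -5.23, -5.77 and -5.44 against -5.53, -6.52 and -6.12, and was well above background on 5 of 6 arrays. Pola2 showed the same arrangement: its brightest probe had 0.06, 0.28 and 0.05 against 0.34, 0.16 and 0.27. A dim one, well above background on 4 arrays, had -6.16, -5.73 and -5.25 against -5.36, -6.83 and -6.78, a difference of 0.61 ± 0.45.

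Orc3 had 5 kept probes, and for 2 of them the array's strand is opposite to that of the gene, so they need not read Orc3 mRNA. They are printed beside the brightest probe because their values differ from it. The brightest, at chr4:34709669-34710438 (mm7, minus strand, spanning more of the genome than its own length), had levels of 2.04, 1.64 and 1.94 in Brg1d/d 1, 2 and 3, against 1.64, 1.82 and 1.93 in controls 1, 2 and 3. The first opposite-strand probe, at chr4:34706381-34706440 (plus strand), had -2.01, -0.10 and -0.95 against 0.95, 0.10 and -0.21. Its difference was -1.30 ± 0.53 (limma adjusted p = 0.151), with overlap. The second, at chr4:34708687-34708746 (plus strand), differed by -0.30 ± 0.15. The remaining probes of the gene's own strand gave -0.41 and 0.29.
Orc3 brightest: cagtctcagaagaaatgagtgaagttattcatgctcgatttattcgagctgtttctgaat
Orc3 opposite 1: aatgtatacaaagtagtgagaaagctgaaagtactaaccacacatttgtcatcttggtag
Orc3 opposite 2: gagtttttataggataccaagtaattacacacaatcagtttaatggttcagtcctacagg

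**Figure D4:**
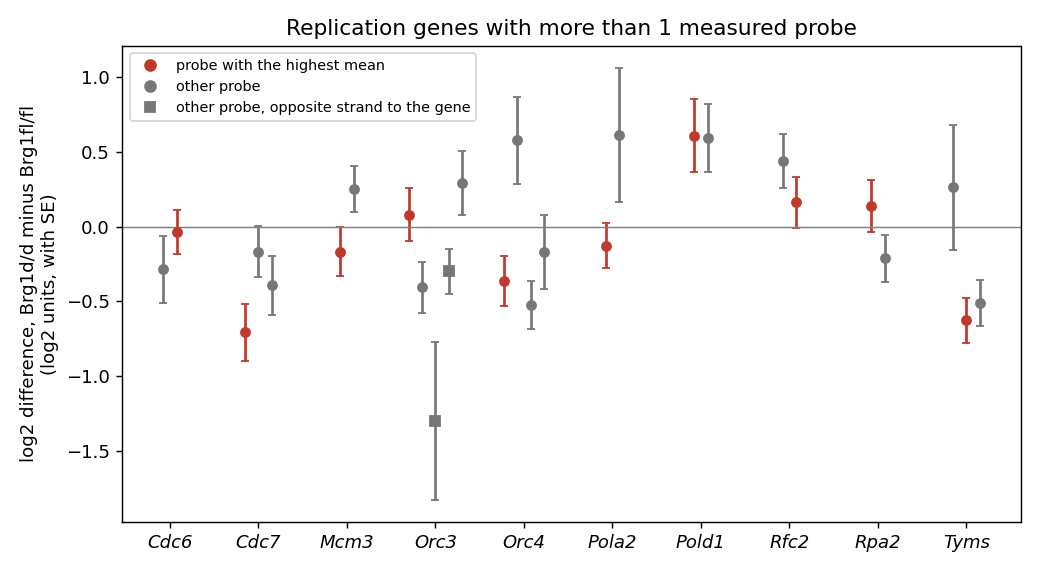
Log2 difference (Brg1d/d minus Brg1fl/fl) with its SE for each kept probe of the 10 replication genes with more than 1, the probe with the highest mean in red, others in grey and opposite-strand probes as squares. The probes of Pold1 lie together, at 0.61 and 0.59, while those of Orc3 run from -1.30 to 0.29.

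An E2F-type sequence near the gene start was more frequent among these genes than among all genes, although most of them lacked it. RefSeq promoter windows of assembly GRCm38.p6, from 250 bases before to 50 bases after each start, were found for 34 of the 39 genes. The letters TTTGGCGC, TTTCGCGC, TTTCCCGC or TTTGCCGC, on either strand, stood in a window of 13 of the 34 genes (38.2%), against 2.61% of all 27025 genes with a window. The letters CCAAT, the core of the site bound by NF-Y, stood in 21 of the 34 (61.8%), against 41.1% of all genes, and 7 genes had both. A match is a description of the letters and not a shown binding site. The 13 genes with the E2F-type letters had a median difference of -0.03, with 8 below 0, and the 21 without had -0.13, with 17 below 0. Neither Rrm2 nor Tyms, nor Cdc7, had these letters in the window.

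As examples, 4 of the genes whose match lies upstream of the start are shown, from the helicase, licensing and polymerase groups, with 16 bases on each side. Capitals mark the first match from the 5' end. Each is written on the strand of its gene, at the following places in GRCm38.p6. The stretch of Mcm5 is chr8:75109340-75109379 (plus strand), that of Mcm6 chr1:128359792-128359831 (minus), that of Cdc6 chr11:98907997-98908036 (plus) and that of Pola1 chrX:93632270-93632309 (minus). In Cdc6 and Pola1 the match in capitals is on the opposite strand and so appears as its reverse complement. In Mcm5 and Mcm6 it overlaps another match, on the opposite strand, whose last letters are in lower case.
Mcm5: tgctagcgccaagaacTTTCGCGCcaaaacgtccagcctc
Mcm6: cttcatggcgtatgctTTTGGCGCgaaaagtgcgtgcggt
Cdc6: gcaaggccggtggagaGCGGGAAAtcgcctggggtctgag
Pola1: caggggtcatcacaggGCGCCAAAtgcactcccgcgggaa
With these letters, Mcm5 differed by 0.42 between genotypes, Mcm6 by 0.09, Cdc6 by -0.04 and Pola1 by -0.37, none past the threshold.

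The rest of the replication pathway was read from 4 lists of 60 other genes, all measured. In all, 1 of the 60 passed, Pold2, and it was higher in Brg1d/d. The median difference of the 60 was 0.01, with 29 below 0. Of 22 fork factors 1 passed. Pold2, the second subunit of polymerase delta, had levels of 2.63, 2.46 and 2.47 in Brg1d/d 1, 2 and 3, against 1.41, 1.02 and 0.94 in controls 1, 2 and 3. The groups were far apart, and the difference was 1.40 ± 0.18, or 2.64-fold higher (limma adjusted p = 0.0104, same-day value 1.34). The adjusted p was 0.291 with scan day and 0.126 with the spike-in split as a block. It was 0.0554 without Brg1d/d 1, 0.0517 without Brg1d/d 3 and 0.0591 without control 2. Pold1 of the same enzyme also had a difference above 0, while Pold3 and Pold4 were at -0.53 ± 0.22 and 0.54 ± 0.21.

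Of 14 other origin and helicase factors none passed, and the smallest p belonged to Mcm8, a helicase of the MCM family that works mainly in repair, at -0.55 ± 0.16 (limma adjusted p = 0.0815). Without Brg1d/d 2, Mcm8 was at -0.66 (adjusted p = 0.0461). Of 14 other nucleotide supply genes none passed, and their median difference was 0.11, with 6 below 0. Of 10 genes of histone supply and chromatin at forks none passed. Uhrf1, which brings the maintenance methyltransferase to new DNA, was at -0.57 ± 0.16 (limma adjusted p = 0.0727).

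Markers of several cell types moved between the same embryos. Of 8 cardiac muscle genes all 8 fell, with a summed level of 9.89 to 15.2 in Brg1d/d against 141.1 to 202.8 in controls. Of 7 trophoblast genes 5 rose, with sums of 26.3 to 35.7 against 14.3 to 21.8. None of 7 primitive red cell genes and none of 8 visceral endoderm genes passed, with sums of 59.9 to 73.7 against 69.5 to 275.1 and 300.0 to 352.6 against 89.0 to 400.0. Of 6 decidua genes 1 rose and 1 fell (sums of 3.07 to 3.66 against 1.29 to 4.19), and of 5 leukocyte genes 1 fell (0.297 to 0.428 against 0.158 to 0.469). Every measured gene of these lists was well above background on at least 1 array of each genotype. The part of these cell types in the values of the replication genes was not tested.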

How the data were processed

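Whole-embryo RNA of 3 Brg1d/d and 3 Brg1fl/fl samples was labelled with Cy3, from 250 ng each per the labels. The authors deposited intensity values made with Agilent Feature Extraction 9.5 (version per the submitters' processing notes). Per the file headers these intensity values are background-subtracted and detrended within each array, with no scaling between arrays, and other columns hold flags of 0 or 1. The series table equalled the processed signal at 100% of spots (tolerance 1e-4) and was not used further.

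Of 43379 non-control spots per array, 53 to 83 outliers were left out, and saturated spots (0 to 4) were kept. The authors' intensity values were put on a log2 scale, each array's 75th percentile was subtracted, and spots of a probe were averaged. A probe was kept (27860 were) when every array of 1 or both genotypes showed it well above background. Names came from the array and RefSeq (GRCm38.p6): 22951 probes by accession, 6659 by symbol, 3109 by synonym, and 8455 kept the array's name. Of the 19505 genes so named, 15032 had a kept probe and were read through the brightest. Genotypes were compared with limma 3.58.1 in R 4.3.3 (lmFit and eBayes, two-sided), with Benjamini-Hochberg adjustment over all kept probes and a threshold of 0.05, and the fit was tested on simulated data. The labels call the samples biological replicates, and their number, 3 per genotype, limits the precision. Same-numbered samples did not deviate together (correlations of -0.13, 0.08 and 0.09), so the numbers were not taken as pairs.

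The 39 genes were taken by name and the lists of other replication genes by function, not by measured levels. Earlier results of these data were known when these genes and all lists were chosen. Full values are given for genes that passed, the largest difference in each role, and genes whose probes differed in sign with at least 0.5 on 1 of them; each other list is represented by genes that passed or the smallest p. A single such result is not reported here. Prim2 without control 1, and Pold1, Pold3 and Pold4, were described further after their values were seen. Alternatives were other scalings (quantile, median), normexp background correction with an offset of 50, other filters, variance models, array weights, blocks, thresholds, probe averaging, and each array left out. Files were read with Python 3.11.15 and pandas 2.3.3, and plots were drawn with matplotlib 3.10.9.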

Additional observations from a re-analysis of the deposited data

How the results depend on the processing

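Over 20 alternatives, the median difference of the 39 genes, -0.09 in the fit reported, stayed below 0. It ran from -0.19 with median scaling to -0.05 without control 1. No called value turned its sign, and 49 of 780 single values changed sign, in 16 genes, none of them called. Part of the 780 could not change sign. The intensity trend, the slide and replicate blocks and the stricter thresholds leave the differences as they are. The filters on dim probes also left them unchanged. Scan day and the spike-in split as blocks give the same differences as each other. The count of replication genes that passed was 2 with quantile scaling (with Tyms), 3 with normexp (with Tyms and Orc2), 4 with an intensity trend and robust eBayes (with Tyms, Orc2 and Cdc7) and 10 with array weights. It was 0 with no filter on dim probes, with scan day or the spike-in split as a block, and with the replicate block (Rrm2 adjusted p = 0.104). At a threshold of 0.01 and at 2-fold it was also 0, and with 1 array left out it was 0 to 3. Over all genes, 11% passed with quantile scaling, 11.3% with normexp, 13.4% with the intensity trend and 42.3% with array weights. With no filter 3.56% passed, and with 1 array left out 2.03% to 18.7% did. With the limma scan day block, 1 of the 39 had an unadjusted p under 0.05, as with the spike-in block. With no filter or the replicate block there were 6, and at the stricter thresholds 8. Over all genes, the count was 2226 with the spike-in block, 4981 of 19505 with no filter and 4411 of 15032 with the replicate block. At the stricter thresholds it was 4891 (32.5%). Rrm2 passed in 10 of the 20, between -0.76 and -0.63. Counts of other replication genes were 2 with normexp, 6 with the intensity trend, 20 with array weights, 0 with scan day, the spike-in split or a threshold of 0.01, and 0 to 4 with 1 array left out; their unadjusted count was 1 with either block and 12 at the threshold of 0.01. Counts over all genes, 1587 in the fit reported, were 694 with no filter, 6352 with array weights, 0 with scan day (1795 at an unadjusted p under 0.05), 122 with the spike-in split, 572 with the replicate block, 263 at 0.01, and 306 to 2917 with 1 array left out (327 without Brg1d/d 1, 2917 without Brg1d/d 2, 345 without Brg1d/d 3, 306 without control 2 and 922 without control 3). Smarca4 did not pass with scan day (-2.09, adjusted p = 0.282), the spike-in split (0.131), the replicate block (0.0529), the threshold of 0.01 or without Brg1d/d 3 (0.0540). Median scaling moved the median of all genes from 0.07 to -0.03, and 30 of the 39 genes were then below 0, against 26 with normexp, 23 with array weights, 23 without control 1, 24 without Brg1d/d 2 and 25 with scan day or the spike-in split as a block. The cause of these changes was not tested.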

Other observations

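The array pattern of Prim2, high on control 1 and on all Brg1d/d arrays and low on controls 2 and 3, was looked for in all probes after its values were seen. Of 41151 probes, 8 were well above background on those 4 arrays and over 2 log2 units higher on each than on controls 2 and 3. The opposite pattern, with background asked of controls 2 and 3 only, was shown by 53 probes. These conditions are unlike, so the counts are not a like comparison. The largest gap among the 8 belonged to Imp4, a gene of ribosomal RNA processing, at 6.36, and the next to Prim2, at 3.02. Both probes lie on chromosome 1 of mm7, 0.991 Mb apart, at chr1:34668349-34668408 and chr1:33676948-33677007. Imp4 had levels of -0.40, -0.99 and -0.74 in Brg1d/d 1, 2 and 3, -2.17 in control 1, and -8.53 and -9.16 in controls 2 and 3, where it was not well above background. The other 26 kept probes within 2 Mb, of 15 genes, differed between control 1 and the mean of controls 2 and 3 by at most 1.49, with a median of 0.37. What Prim2 and Imp4 share on these arrays was not tested.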
